A study of Mus musculus with 70 samples.

Results

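The genes described here are 10 genes of type 2 immune responses and of airway goblet cells: Chil3, Chil4, Chia1, Retnla, Arg1, Clca1, Slc26a4, Muc5ac, Muc5b and Agr2. They were chosen by name from the 50789 genes of the count table because their RNA was higher in the lung of Cic-S-KO mice than in WT lung. All 10 also passed the filter on low counts, which left 16695 genes tested in lung. The choice used the Cic-S-KO against WT difference, so the values of these genes in that comparison are a description. Their levels in Cic-L-KO lung and in the brain, and the order of the libraries within each lung group, were not used by the choice.

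RNA-seq of polyadenylated RNA was made from mice that differ at Cic, which encodes the transcriptional repressor capicua. Cic-S-KO mice lack the short capicua isoform, Cic-L-KO mice lack the long isoform, and WT mice are their unmutated littermates. The lungs came from pups of postnatal day 6 and the cortex and cerebellum samples from adults of 12 weeks, with 8 samples in each group except 7 each in Cic-S-KO cortex and cerebellum. The WT samples pool littermates of both lines, and the labels do not give the line of each WT sample, so neither knockout can be set against its own littermates alone. Lung libraries held 17798655 to 35523037 counted reads, with a median of 23710471, and all 24 carry batch 1 in the labels. Cic itself was at 127.4 to 156.8 CPM in WT, 149 to 182.8 CPM in Cic-S-KO and 131.1 to 148 CPM in Cic-L-KO lung. CPM is the read count of a gene as a share of its library's total, with libraries scaled by the trimmed mean of M values (TMM). These are sums over the whole gene and cannot show the loss of one isoform. Replicates 1 to 4 of each lung group carried Y-linked RNA (mean of 4 genes 60.8 to 74.4 CPM), while replicates 5 to 8 had at most 0.0357 CPM, so each group held 4 libraries of either kind.

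In type 2 immunity, the cytokines interleukin-4 and interleukin-13 act through the receptor chains Il4ra and Il13ra1 and the transcription factor Stat6. In macrophages they induce arginase 1, resistin-like molecule alpha and chitinase-like proteins. In the airway lining they drive the change of secretory cells into mucus-filled goblet cells, in which the transcription factors Spdef and Foxa3 act. Lung macrophages, airway secretory cells and goblet cells can thus each contribute some of the 10 transcripts. In whole-tissue RNA more cells of a type cannot be told apart from more RNA per cell.

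Chia1, Chil3 and Chil4 lie close together on mouse chromosome 3 and belong to the chitinase family. In GENCODE M21 on GRCm38, Chia1 spans positions 106113229 to 106132120 on the plus strand, Chil3 spans 106147554 to 106167564 on the minus strand, and Chil4 spans 106201490 to 106219507 on the minus strand. Muc5ac (141788972 to 141819231) and Muc5b (141839070 to 141873084) are neighbours on chromosome 7, both on the plus strand. RefSeq promoters on GRCm38.p6 were found for 6 of the 10 genes (Chil3, Chil4, Chia1, Retnla, Slc26a4 and Agr2), as windows of 300 bases around the gene start. The windows of Chil3 and Chil4 were the most alike of the 15 pairs, with 76.6% identical positions over an alignment of 329 columns, and those of Chil4 and Chia1 came next at 60.4%. The 250 bases upstream of the RefSeq starts of Chil3 (chr3:106167565-106167814, minus strand) and Chil4 (chr3:106219480-106219729, minus strand) are shown because these genes moved far in lung and read alike. Those of Retnla (chr16:48842359-48842608, plus strand) are shown because it was the most abundant member. The GENCODE starts of Chil4 (106219507) and Retnla (48842551) lie inside these stretches, so by GENCODE the last bases shown belong to the gene. Capitals mark the match to the motif named below, and each sequence reads 5′ to 3′ toward the gene.
Chil3: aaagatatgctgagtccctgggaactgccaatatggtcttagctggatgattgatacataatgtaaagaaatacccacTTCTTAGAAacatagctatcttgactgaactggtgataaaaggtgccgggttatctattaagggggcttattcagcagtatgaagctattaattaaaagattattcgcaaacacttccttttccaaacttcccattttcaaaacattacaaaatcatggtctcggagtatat
Chil4: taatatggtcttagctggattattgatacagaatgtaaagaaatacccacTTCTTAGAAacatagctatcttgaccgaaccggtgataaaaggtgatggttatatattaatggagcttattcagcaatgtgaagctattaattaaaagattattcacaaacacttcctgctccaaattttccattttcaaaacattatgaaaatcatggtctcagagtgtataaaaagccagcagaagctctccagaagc
Retnla: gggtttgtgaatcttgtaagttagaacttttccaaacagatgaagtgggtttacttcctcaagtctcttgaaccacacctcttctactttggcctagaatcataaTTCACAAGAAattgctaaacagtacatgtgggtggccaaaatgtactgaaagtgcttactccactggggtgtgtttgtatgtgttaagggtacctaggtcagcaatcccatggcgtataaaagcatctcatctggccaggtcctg
Chil3 and Chil4 carry the same 9 bases, TTCTTAGAA, a match to the general STAT motif TTCNNNGAA, beginning 172 and 200 bases before their RefSeq starts. Retnla carries TTCACAAGAA, a match to the wider motif that STAT6 prefers, TTC and GAA with 4 bases between them, 145 bases before its RefSeq start. Counted from the GENCODE starts, the distances for Chil4 and Retnla are shorter and that for Chil3 is the same. Both motifs read the same on either strand. Such matches are common: 8.3% of 32851 RefSeq promoters hold TTCNNNGAA and 6.95% hold the wider motif. The capicua octamers TGAATGAA, TGAATGGA, TCAATGAA and TCAATGGA (either strand, in 3.84% of promoters) and the forkhead motifs TGTTTAC and TATTTAC (either strand, in 6.54%) were in 0 of the 6 windows. A match in these letters is a description of the sequence and not a measured binding site.

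The likeness of Chil3 and Chil4 extends into their transcripts, which limits how well their counts can be separated. Of 1629 windows of 50 bases in the Chil3 transcripts, 438 (26.9%) also occur in another gene, 275 of them in Chil4. For Chil4 the share was 11% (304 of 2763 windows), and for the other 8 genes it was 0%. How reads from shared stretches were assigned is not given in the sources used here, so the separate values of Chil3 and Chil4 are uncertain to that extent.

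The genes typical of macrophages are described first. Retnla encodes resistin-like molecule alpha, a secreted protein of alternatively activated macrophages and of airway epithelium. It ranged from 31.2 to 182.5 CPM in WT (median 55.6), from 276.3 to 1796 CPM in Cic-S-KO (median 651.3) and from 70.0 to 239.2 CPM in Cic-L-KO lung (median 160.7). It was the 1 gene of the 10 for which all 8 Cic-S-KO libraries stood above all 8 WT libraries; 1.51% of all tested genes had that property. The fitted log2 fold change of Cic-S-KO over WT was 3.52 (SE 0.494), and the Cic-S-KO libraries 2, 5 and 6 were the highest.

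Chil3 encodes the chitinase-like lectin Ym1, made mainly by lung macrophages. It ranged from 4.09 to 70.7 CPM in WT (median 7.74), from 19.7 to 600.2 CPM in Cic-S-KO (median 219.2) and from 5.62 to 31.1 CPM in Cic-L-KO (median 18.4). Its log2 fold change of Cic-S-KO over WT was 4.0 (SE 0.677). In 7 of 8 Cic-S-KO libraries Chil3 exceeded every WT library; replicate 8 (19.7 CPM) did not, since WT replicate 7 held 70.7 CPM and the next WT library 23.6 CPM.

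Arg1 encodes arginase 1, the enzyme that splits arginine into ornithine and urea. It lay between 2.08 and 4.70 CPM in WT (median 2.46), between 4.64 and 62.8 CPM in Cic-S-KO (median 12.4) and between 3.38 and 7.38 CPM in Cic-L-KO (median 5.05). The Cic-S-KO over WT log2 fold change was 2.54 (SE 0.409), and 7 of 8 Cic-S-KO libraries exceeded all WT libraries. Replicate 6 alone reached 62.8 CPM, and the next Cic-S-KO library held 14.7 CPM.

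Chil4 and Chia1, the other chitinase-family genes, differed widely in level. Chil4 encodes Ym2, the close relative of Ym1 that is made by airway epithelium in type 2 responses. It was barely present in WT, at 0.0783 to 2.12 CPM (median 0.275, or 2 to 49 reads), and lay at 1.74 to 242.7 CPM in Cic-S-KO (median 53.5) and 1.62 to 9.77 CPM in Cic-L-KO (median 3.12). The Cic-S-KO over WT log2 fold change of 6.77 (SE 1.08) was the highest of all 16695 genes tested, and rests on a WT level of few reads. The Cic-S-KO libraries fell into separate clusters for Chil4: replicates 3, 4 and 8 held 1.74 to 2.77 CPM, and the other 5 held 21 to 242.7 CPM.

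Chia1 encodes acidic mammalian chitinase, a secreted chitin-degrading enzyme. It was well expressed in WT, at 22.5 to 57.9 CPM (median 43.9), and lay at 46.7 to 218.6 CPM in Cic-S-KO (median 94.4) and 41.2 to 87.8 CPM in Cic-L-KO (median 60.6). Its log2 fold change of 1.29 (SE 0.275) for Cic-S-KO over WT was the lowest of the 10. Even so, 7 of 8 Cic-S-KO libraries stood above every WT library. The WT libraries spread less than for most of the 10 genes (SD of log2 CPM 0.424), though 83% of tested genes had a smaller SD.

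Clca1 and Slc26a4 are epithelial genes tied to mucus and ion transport. Clca1 encodes a secreted goblet cell protein that alters chloride currents. It ranged from 0.118 to 23.4 CPM in WT (median 0.793), from 6.04 to 777.2 CPM in Cic-S-KO (median 131.2) and from 7.74 to 53.5 CPM in Cic-L-KO (median 18.5). The log2 fold change of Cic-S-KO over WT was 5.43 (SE 1.07). WT and Cic-S-KO overlapped: WT replicates 1 and 5 held 11.5 and 23.4 CPM, above or near Cic-S-KO replicates 3, 4 and 8 at 6.04 to 13.4 CPM.

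Slc26a4 encodes pendrin, an anion exchanger of the apical membrane. It ranged from 0.148 to 4.48 CPM in WT (median 0.659), from 3.44 to 97.4 CPM in Cic-S-KO (median 23.8) and from 0.748 to 12.1 CPM in Cic-L-KO (median 1.59). The log2 fold change of Cic-S-KO over WT was 4.57 (SE 0.841). In 7 of 8 Cic-S-KO libraries Slc26a4 exceeded all WT libraries; replicate 4, at 3.44 CPM, lay below WT replicates 1 and 3.

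Muc5ac and Muc5b encode the gel-forming mucins of airway mucus, and Agr2 encodes a protein disulfide isomerase of the endoplasmic reticulum needed for mucin folding. Muc5ac lay at 4.13 to 9.63 CPM in WT (median 5.30), 4.08 to 70.7 CPM in Cic-S-KO (median 18.2) and 5.47 to 14.1 CPM in Cic-L-KO (median 7.14). Its Cic-S-KO over WT log2 fold change was 2.00 (SE 0.42), with 6 of 8 Cic-S-KO libraries above all WT libraries and replicate 4 below the lowest of them.

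Muc5b lay at 1.40 to 33.4 CPM in WT (median 5.23), 8.52 to 122.2 CPM in Cic-S-KO (median 36.8) and 5.45 to 69.5 CPM in Cic-L-KO (median 10.4). The log2 fold change was 2.52 (SE 0.668), and 5 of 8 Cic-S-KO libraries exceeded the WT library with the most Muc5b, replicate 5. Agr2 lay at 0.241 to 2.95 CPM in WT (median 0.605), 1.48 to 21.7 CPM in Cic-S-KO (median 5.82) and 0.499 to 3.62 CPM in Cic-L-KO (median 0.864). Its log2 fold change was 3.06 (SE 0.572), with 7 of 8 Cic-S-KO libraries above all WT libraries. For both genes the highest WT library was replicate 5 and the highest Cic-L-KO library was also replicate 5.

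**Figure D1:**
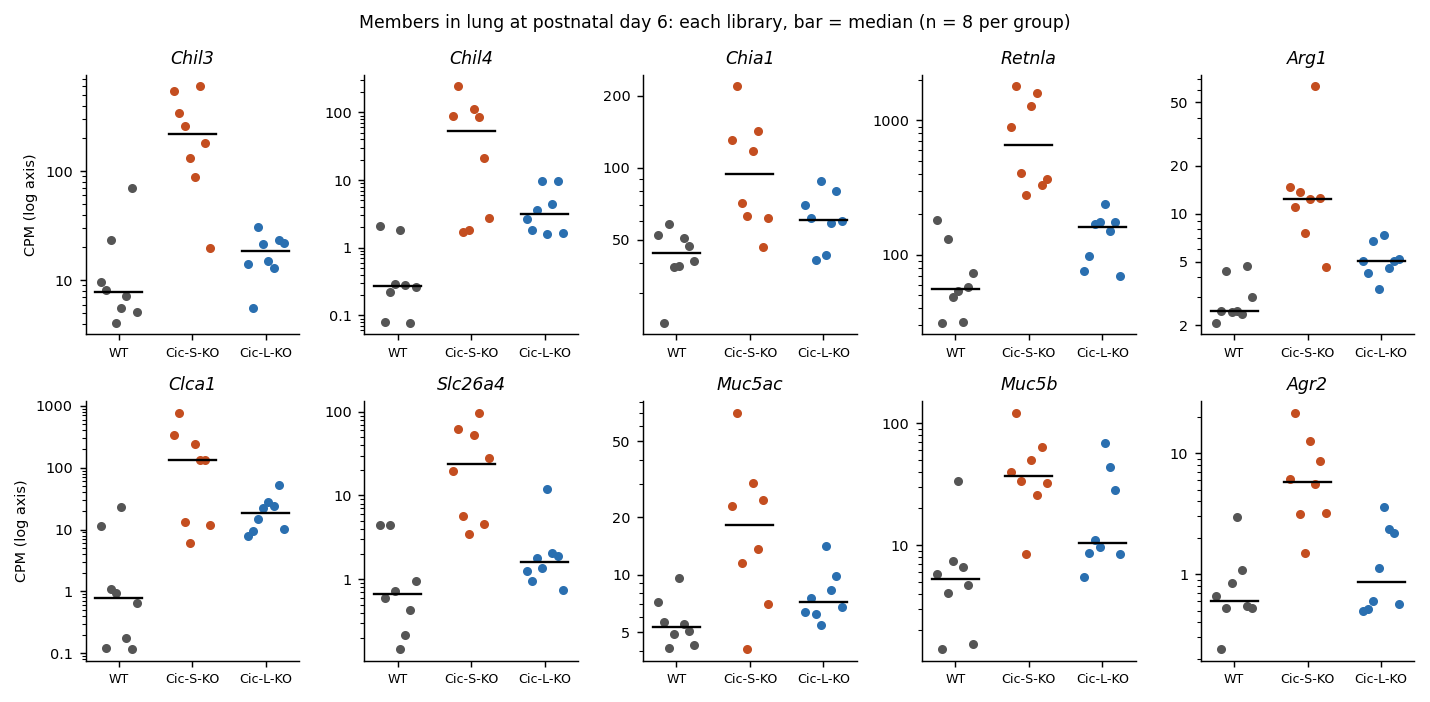
TMM-normalised CPM (log axis) of each of the 10 genes in every lung library at postnatal day 6, by genotype; points are libraries (n = 8 per group) and bars are medians. All 8 Cic-S-KO points lie above all 8 WT points for Retnla alone, and the Cic-S-KO points of Chil4 and Clca1 split into a group of 5 high and a group of 3 low libraries.

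Per kilobase of exon, which allows levels of different genes to be compared, the order of the genes differed between the groups. In WT the medians were highest for Retnla (92.9 CPM per kb) and Chia1 (23.1 CPM per kb), and Chil4 was last at 0.0975 CPM per kb. In Cic-S-KO lung Retnla remained first at 1087 CPM per kb, followed by Chil3 at 134.4, Chia1 at 49.6, Clca1 at 34.8 and Chil4 at 19.0 CPM per kb. The ranges of Chia1 (24.5 to 114.8 CPM per kb) and Clca1 (1.60 to 205.8 CPM per kb) overlapped, so neighbours in this order were not separated beyond their spread. The mucins were lowest, at medians of 2.46 CPM per kb for Muc5b and 1.70 CPM per kb for Muc5ac.

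With edgeR's quasi-likelihood test and Benjamini-Hochberg adjusted p under 0.05, 9.99% of all tested genes were higher and 5.73% lower in Cic-S-KO than in WT lung. All 10 members were among the higher genes, which is how they were chosen and is read no further. Their log2 fold changes ran from 1.29 to 6.77 with a median of 3.29. Among the animals with Y-linked RNA the log2 fold changes of the 10 genes were positive throughout, from 1.49 for Chia1 to 7.01 for Chil4, and among the others from 1.04 for Chia1 to 6.74 for Slc26a4. Slc26a4 was the gene with the widest gap, at 3.16 (SE 0.986) with Y-linked RNA and 6.74 (SE 1.31) without it; the difference was not tested.

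The test of Cic-L-KO against WT lung asked whether the same genes also differed when the long isoform was missing. It uses the same 8 WT libraries, so it is set beside the first comparison and not counted as a second, independent one. By edgeR's quasi-likelihood test 0 of the 10 genes passed an adjusted p of 0.05, against 2.62% of all tested genes called higher and 2.28% called lower. At an unadjusted p under 0.05 the test gave 3 genes (Chil4, Clca1 and Muc5b), DESeq2 called 1 (Chil4, adjusted p = 0.0197), and limma voom with library weights called 0. All 10 fold changes were positive, with a median log2 fold change of 0.867 beside -0.000935 for all tested genes. For Chil3 that sign was not stable, since it turned to between -0.0247 and -0.00945 when any 1 of 4 libraries was left out (WT replicate 4, 5 or 8, or Cic-L-KO replicate 3), and it was -0.259 among the animals without Y-linked RNA. For Slc26a4 it was -0.889 among those with it.

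Chil4 was the closest to a difference in Cic-L-KO lung, with a log2 fold change of 2.8 (SE 1.17, adjusted p = 0.176 by edgeR). In 5 of 8 Cic-L-KO libraries it exceeded every WT library. Muc5b had a log2 fold change of 1.5 (SE 0.662, adjusted p = 0.202) and Clca1 one of 2.15 (SE 1.01, adjusted p = 0.23). Fitted with WT and Cic-L-KO alone, edgeR called Chil4 (adjusted p = 0.026) and Arg1 (adjusted p = 0.0149). Without WT replicate 5 Muc5b passed (log2 fold change 2.36, adjusted p = 0.0449), and without Cic-S-KO replicate 6, which also enters the shared estimate of spread, Arg1 passed (adjusted p = 0.0297).

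Chia1 and Arg1 had smaller shifts that many libraries shared. In Cic-L-KO lung, Chia1 was above every WT library in 6 of 8 libraries (log2 fold change 0.525, SE 0.274, adjusted p = 0.289) and Arg1 in 5 of 8 (0.806, SE 0.415, adjusted p = 0.282). Retnla (0.928, adjusted p = 0.256), Slc26a4 (0.949, adjusted p = 0.595), Agr2 (0.617, adjusted p = 0.61), Muc5ac (0.478, adjusted p = 0.567) and Chil3 (0.126, adjusted p = 0.942) completed the set. For 0 of the 10 genes did all 8 Cic-L-KO libraries lie above all WT libraries, as 0.587% of tested genes did. The Chil3 value depends on 1 library, since without WT replicate 7 it rose to 1.02.

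Set directly against each other, Cic-S-KO lung was higher than Cic-L-KO lung for 8 of the 10 genes by edgeR at adjusted p under 0.05 (all but Chia1 and Muc5b), where 7.31% of tested genes were higher. This contrast contains the Cic-S-KO libraries used in choosing the genes, so it too is a description. The log2 differences ran from 0.76 for Chia1 to 3.97 for Chil4. Muc5b differed by 1.03 (SE 0.627), and Cic-L-KO replicates 5, 6 and 7 held 28.5 to 69.5 CPM of it, within the Cic-S-KO range. Chil4 and Clca1 did not pass with limma voom (adjusted p = 0.107 and 0.0517) or with the replicate number as a block (log2 differences of 2.92 and 2.09, adjusted p = 0.0568 and 0.163), and Clca1 did not pass without Cic-S-KO replicate 2 (adjusted p = 0.0732) or Cic-L-KO replicate 8 (adjusted p = 0.0525). Muc5ac did not pass by edgeR with the 2 compared genotypes alone (adjusted p = 0.0568). Other settings added calls. Chia1 passed with DESeq2 (adjusted p = 0.0406), with a non-robust edgeR fit (0.0414) and without Cic-S-KO replicate 4, 7 or 8 (0.0452, 0.0371 and 0.0494 by edgeR). Muc5b passed with limma voom (adjusted p = 0.0457).

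The spread between libraries of one group was wide for these genes. The SD of log2 CPM within a group had a median over the 10 genes of 1.15 for WT, 1.245 for Cic-S-KO and 0.845 for Cic-L-KO, where the median over all tested genes was 0.178, 0.175 and 0.172. In Cic-S-KO lung at least 96.6% of tested genes had a smaller SD than each of the 10, with Chia1 the least and Chil4 (SD 2.91) the most variable. In WT the range was broader: Muc5ac (SD 0.397), Chia1 (0.424) and Arg1 (0.428) varied less, and Clca1 (2.6) varied most. From lowest to highest Cic-S-KO library, Chil4 spanned 139.7-fold and Clca1 128.8-fold, whereas Chia1 spanned 4.68-fold.

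In Cic-S-KO lung the same few libraries carried the high values. Summed over the 10 genes, WT libraries held 72.5 to 278.5 CPM, Cic-L-KO libraries 185.4 to 433.6 CPM and Cic-S-KO libraries 505.6 to 3662 CPM. Cic-S-KO replicate 2 was the highest of its group for 7 genes, and replicate 6 for the other 3 (Chil3, Arg1 and Slc26a4). Replicate 4 was the lowest for 6 genes and among the lowest 3 for all 10, and replicate 8 was among the lowest 3 for 9. In Cic-L-KO lung replicate 5 was highest for 6 genes, and in WT replicate 5 was highest for 4 (Clca1, Muc5ac, Muc5b and Agr2). Cic-L-KO replicate 5 was also the lowest of its group for Chil4, and WT replicate 5 for Slc26a4.

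**Figure D2:**
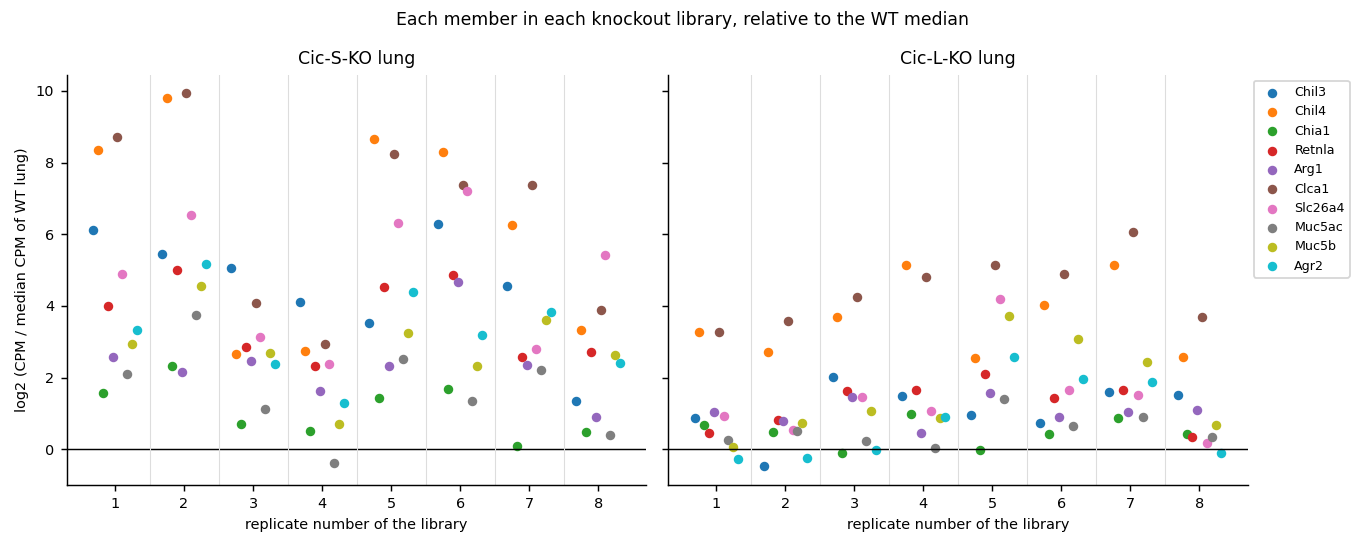
Level of each of the 10 genes in each knockout lung library, as log2 of its CPM over the median CPM of WT lung (line at 0), with Cic-S-KO on the left and Cic-L-KO on the right; the horizontal axis is the replicate number, which is a name and not an order. Cic-S-KO replicates 2 and 6 carry the highest values, and replicate 4 the lowest for 6 of the 10 genes.

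Co-variation was measured as the Pearson correlation of log2 CPM across the 8 libraries of a group, for each of 45 pairs of genes in each of 3 groups. A pair was left out where the libraries of either gene fell into separate clusters, as for Chil4, Retnla and Clca1 in Cic-S-KO, which left 64 pairs tested and 71 not tested. With exact two-sided permutation and adjustment over the 64, 3 pairs passed in Cic-S-KO, 5 in Cic-L-KO and 1 in WT. Without the 2 libraries farthest from the median of the first gene no pair passed, but the 6 libraries left allow few permutations, so with adjustment over 64 pairs these lost calls say little. The r of each pair without those libraries is given beside its r over 8. At an unadjusted p the counts were 5 of 21 pairs in Cic-S-KO, 12 of 28 in Cic-L-KO and 1 of 15 in WT.

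The mucins and Agr2 formed the tightest group. In Cic-S-KO lung Muc5ac and Agr2 had r = 0.975 (exact permutation p = 0.000223, adjusted 0.00714) and rho = 0.976 (exact p = 0.000397, adjusted 0.0127), and r was 0.916 over the 6 remaining libraries. Muc5ac and Muc5b had r = 0.921 (exact p = 0.00211, adjusted 0.027; rho = 0.905, exact p = 0.00456, adjusted 0.0487), and r was 0.721 without the 2 farthest libraries. Muc5b and Agr2 had r = 0.912 (exact p = 0.00211, adjusted 0.027; rho = 0.881, exact p = 0.00724, adjusted 0.0515), and r was 0.687 without them. Replicates 2, 5 and 7 were high and replicate 4 was low for all 3 genes.

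Muc5b and Agr2 were the 1 pair that passed in all 3 groups. In WT their r was 0.935 (exact permutation p = 0.000124, adjusted 0.00714; rho = 0.976, exact p = 0.000397, adjusted 0.0127), falling to 0.679 without the 2 farthest libraries. In Cic-L-KO r was 0.953 (exact permutation p = 0.000893, adjusted 0.019; rho = 0.952, exact p = 0.00114, adjusted 0.0243) and 0.88 without them. Cic-L-KO replicates 5, 6 and 7 were the 3 highest for both genes.

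In Cic-L-KO lung pairs with Slc26a4 passed as well. Slc26a4 had r = 0.818 with Muc5b (exact permutation p = 0.00313, adjusted 0.0333; rho = 0.929, exact p = 0.00223, adjusted 0.0286; r = 0.787 without 2 libraries) and r = 0.792 with Agr2 (exact permutation p = 0.00382, adjusted 0.0349; rho = 0.881, exact p = 0.00724, adjusted 0.0515; r = 0.745). Retnla and Slc26a4 had r = 0.764 (exact permutation p = 0.00623, adjusted 0.048) and rho = 0.81 (exact permutation p = 0.0218, adjusted 0.0995). Without the 2 libraries farthest from the median of Retnla, which kept replicate 5, r was 0.796. Muc5ac and Muc5b had r = 0.85 (exact permutation p = 0.00675, adjusted 0.048), but rho was 0.619 (exact p = 0.115, adjusted 0.387) and r was 0.614 without 2 libraries. The high value of replicate 5 (12.1 CPM of Slc26a4, 69.5 CPM of Muc5b and 14.1 CPM of Muc5ac) enters each of these pairs.

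No pair of Chil3 with a mucin or Agr2 passed in any group. In Cic-S-KO lung its r was 0.155 with Muc5b (exact permutation p = 0.698, adjusted 0.843; rho = 0.0714, exact p = 0.882, adjusted 0.925; r = 0.326 without 2 libraries). With Agr2 it was 0.269 (exact permutation p = 0.521, adjusted 0.729; rho = 0.167, exact p = 0.703, adjusted 0.849; r = 0.138). With Muc5ac it was 0.402 (exact permutation p = 0.326, adjusted 0.565), with rho = 0.262 (exact p = 0.536, adjusted 0.76) and r = 0.305 without 2 libraries. With Arg1, the other macrophage gene, it was 0.76 (exact permutation p = 0.0466, adjusted 0.166; rho = 0.81, exact p = 0.0218, adjusted 0.0995), falling to 0.466 without 2 libraries. Cic-S-KO replicate 1 shows the contrast, with 540.1 CPM of Chil3, the second-highest of the group, beside 22.9 CPM of Muc5ac, in the middle of its group.

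**Figure D3:**
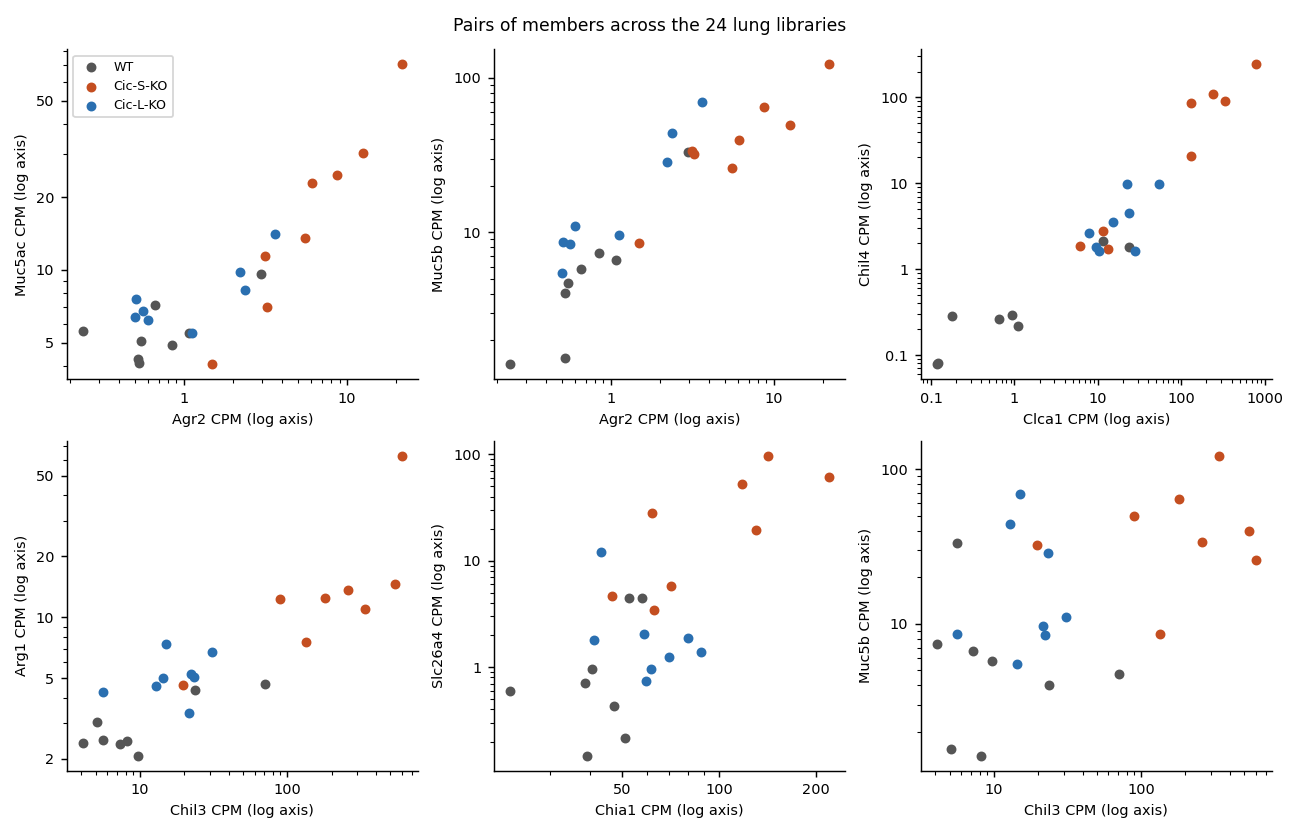
CPM of 6 pairs of members across the 24 lung libraries (both axes log), coloured by genotype; each point is a library. Muc5ac and Muc5b follow Agr2 closely within Cic-S-KO (r of 0.975 and 0.912), whereas Chil3 and Muc5b do not (r of 0.155); for Clca1 and Chil4 the Cic-S-KO libraries fall into 2 clusters, and no r was computed.

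Chil4 and Clca1, for which no r was given in Cic-S-KO lung, were low in the same 3 libraries. Replicates 3, 4 and 8 held 1.74, 1.85 and 2.77 CPM of Chil4 and 13.4, 6.04 and 11.6 CPM of Clca1, and the other 5 held at least 21 and 131.2 CPM. Retnla divided otherwise, with replicates 1, 2, 5 and 6 at 896.9 to 1796 CPM and replicates 3, 4, 7 and 8 at 276.3 to 405.7 CPM.

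Genes outside the set were ranked by how closely they followed the mean standardised log2 CPM of the 10 genes over the 24 lung libraries, after each group's mean was subtracted. The libraries share these means, and the correlation is given as a measure of likeness only. The closest were Adra2a, an adrenergic receptor (r = 0.849), Fer1l6, a member of the ferlin family (0.827), Pla2g4c, a phospholipase A2 (0.79), Gsto1, a glutathione transferase (0.786), and Fcgbp, a mucus protein that binds IgG Fc (0.782). Fxyd4 (0.744), Mmp12 (0.734), Rnf128 (0.721), Eda2r (0.707) and Kcnab1 (0.699) followed. Within Cic-L-KO alone r was 0.281 for Pla2g4c, 0.395 for Mmp12, 0.122 for Eda2r and -0.0163 for Kcnab1. For the same genes it was 0.853 to 0.896 within Cic-S-KO. The other genes of this ranking had r of 0.728 to 0.812 within Cic-L-KO.

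Single members had different nearest genes. For Chil3 they were Ear2 (0.875), Atp6v0d2 (0.784) and Itgax (0.777), the last 2 of which are on the alveolar macrophage list used below. For Clca1 they were Fer1l6 (0.913), Fcgbp (0.795) and Adra2a (0.72). For Muc5b they were Reg3g (0.957), an antimicrobial lectin, Tff2 (0.935), a trefoil peptide, and Scgb3a1 (0.917), a secretoglobin of large airways. Among the members themselves, Retnla (0.818) and Chil4 (0.813) followed the mean of the other 9 most closely, and Arg1 (0.373) and Chil3 (0.338) least.

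The upstream genes of type 2 responses were taken from lists of ligands, receptors, signalling and transcription factors, other responsive genes and relatives of the members. Of 77 listed genes, 71 were in the table and 55 passed the filter; 19 were higher and 1 lower in Cic-S-KO lung against WT (edgeR, adjusted p under 0.05), beside 9.99% and 5.73% of all genes. Their median log2 fold change was 0.362, beside -0.00104 for all genes. In Cic-L-KO against WT lung 1 was higher and 2 were lower. Il1rl1, the receptor of interleukin-33, was not analysed here.

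Of the 7 ligands, 3 passed the filter and 1 rose. Il33, an alarmin released by epithelial and stromal cells, lay at 39.6 to 61.3 CPM in WT (median 47.2), 39.4 to 244.1 CPM in Cic-S-KO (median 63.0) and 50.4 to 110.6 CPM in Cic-L-KO (median 66.2). It was higher in Cic-S-KO by a log2 fold change of 0.927 (SE 0.291, adjusted p = 0.0344), and Cic-S-KO replicates 6 (244.1 CPM) and 8 (131.9 CPM) were the highest. The call did not hold in 6 of 24 fits that left out 1 library (WT replicate 2, 5, 6 or 8, or Cic-S-KO replicate 6 or 8), in which the log2 fold change ranged down to 0.534. For Cic-L-KO over WT the value was 0.555 (adjusted p = 0.292).

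The type 2 cytokines themselves were scarce in this tissue. Il13 was below the filter, at 0 to 0.235 CPM in WT, 0.0398 to 1.24 CPM in Cic-S-KO and 0.0387 to 0.206 CPM in Cic-L-KO, with the highest value in Cic-S-KO replicate 2, the library also highest for 7 members. Il4 (log2 fold change 0.197, adjusted p = 0.409) and Tslp (0.0893, adjusted p = 0.757) did not pass in Cic-S-KO. Il5 and Il25 were below the filter, and Il9 had 0 reads in every lung library.

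Receptors and signalling genes mostly did not pass. Of 9 tested receptor genes 1 rose in Cic-S-KO lung, Csf2rb, the shared beta chain of the interleukin-3, interleukin-5 and GM-CSF receptors (log2 fold change 1.02, SE 0.205, adjusted p = 0.00208). Il4ra (0.142, adjusted p = 0.22) and Il13ra1 (0.0601, adjusted p = 0.351) did not pass. Of 14 tested signalling and transcription factor genes 3 rose: Spdef (0.975, SE 0.245, adjusted p = 0.00774), Irf4, a transcription factor of alternatively activated macrophages (0.67, adjusted p = 0.0162) and Socs3, an inhibitor of cytokine signalling (0.633, adjusted p = 0.0126).

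Spdef, the goblet cell transcription factor, ranged from 0.979 to 1.90 CPM in WT, from 1.32 to 5.34 CPM in Cic-S-KO and from 1.22 to 2.75 CPM in Cic-L-KO. Its highest libraries, Cic-S-KO replicates 2 (5.34 CPM) and 5 (4.62 CPM), were also the 2 highest for Muc5ac and Agr2. Foxa3 was below the filter, at 0.0878 to 0.591 CPM in WT and 0.265 to 1.33 CPM in Cic-S-KO. Stat6 (log2 fold change 0.000333, SE 0.0337, adjusted p = 0.995) and Gata3 (0.095, adjusted p = 0.795) did not pass.

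Of 14 other tested genes responsive to interleukin-4 and interleukin-13, 9 rose and 1 fell in Cic-S-KO lung. They included Ccl24, an eosinophil attractant (log2 fold change 2.86, SE 0.565, adjusted p = 0.00166), Tff2 (3.0, adjusted p = 0.0156), Fcgbp (2.01, adjusted p = 0.00215), Clec10a, a macrophage lectin (1.4, adjusted p = 0.000145) and Mrc1, the macrophage mannose receptor (0.705, SE 0.0874, adjusted p = 1.88e-05). Ch25h (1.88), Ccl11 (1.01), Ccl17 (1.02) and Mgl2 (0.781) also rose, the last 2 with calls that did not hold in 11 and 18 of 24 fits that left out 1 library. Postn, an extracellular matrix gene that is induced by interleukin-13 in other settings, fell by 0.278 on the log2 scale (adjusted p = 0.000804).

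In Cic-L-KO lung Ccl11, the chemokine eotaxin, rose (log2 fold change 0.983, adjusted p = 0.0313), with calls lost in 8 of 24 fits without 1 library. Postn fell by 0.201 (adjusted p = 0.0231, lost in 2 of 24 fits) and Creb3l1 fell by 0.185 (adjusted p = 0.048, lost in 14 of 24 fits).

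Among 15 tested relatives of the members, 5 rose in Cic-S-KO lung and 0 in Cic-L-KO lung, where 3 had an unadjusted p under 0.05 by edgeR. They were Chil5 (log2 fold change 1.44, adjusted p = 0.0334, lost in 8 of 24 fits without 1 library), Retnlg (1.48, adjusted p = 0.00801), Arg2 (0.973, adjusted p = 0.0133) and the membrane mucins Muc1 (0.362, adjusted p = 0.00239) and Muc4 (1.07, adjusted p = 0.00109). Retnlg, a relative of Retnla made by neutrophils, is also on the neutrophil list below.

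Markers of several cell types that a postnatal lung can hold also differed between the groups. In Cic-S-KO lung all 7 tested neutrophil markers were higher than in WT, with the call for Ly6g lost in 6 of 24 fits without 1 library, and their summed level was 33.3 to 145.9 CPM in WT, 65.5 to 281.4 CPM in Cic-S-KO and 35.4 to 163 CPM in Cic-L-KO. Among them S100a9 had a log2 fold change of 1.49 (adjusted p = 0.00765). Within Cic-S-KO, replicate 2, the highest for 7 members, was the lowest for S100a9 (22.0 CPM, against 42.5 to 103.6 CPM in the other 7). The granule genes Mpo and Elane were below the filter. In Cic-L-KO lung 0 of 7 passed by edgeR, also at an unadjusted p under 0.05.

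Of 10 tested alveolar macrophage markers 5 rose in Cic-S-KO lung, and the list summed to 122 to 165.3 CPM in WT, 162 to 254.9 CPM in Cic-S-KO and 139.2 to 169.7 CPM in Cic-L-KO. The 5 were Fabp4 (log2 fold change 1.38, adjusted p = 0.000977), Atp6v0d2 (1.01), Itgax (0.86), Plet1 (0.677) and Car4 (0.197). In Cic-L-KO lung 1 of the 10 rose, Car4 (0.18, adjusted p = 0.0167 by edgeR). Car4 was also the largest part of the list's summed level in every lung library. It lay at 69.0 to 84.6 CPM in WT, 77.7 to 88.6 CPM in Cic-S-KO and 79.7 to 91.2 CPM in Cic-L-KO. Which cells of the lung this RNA came from was not tested.

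Of 9 tested mast cell and basophil markers 4 rose in Cic-S-KO lung (Cpa3, Tpsb2, Cma1 and Tpsab1, the last lost in 6 of 24 fits without 1 library), with summed levels of 111.6 to 139.9 CPM in WT, 114.4 to 151.8 CPM in Cic-S-KO and 114.3 to 154.2 CPM in Cic-L-KO, most of it from Gata2. Eosinophil markers summed to 3.16 to 4.66 CPM in WT, 3.38 to 7.45 CPM in Cic-S-KO and 3.14 to 5.78 CPM in Cic-L-KO. The eosinophil granule genes Epx, Prg2 and Prg3 were at or near 0 (at most 0.265 CPM in any WT or Cic-S-KO library), and 0 of 2 tested eosinophil markers passed in Cic-S-KO by edgeR, with 1 at an unadjusted p under 0.05. Markers of group 2 innate lymphoid and T cells passed in 0 of 8 cases in Cic-S-KO (1 at an unadjusted p under 0.05 by edgeR) and in 2 of 8 in Cic-L-KO, Areg (1.02, adjusted p = 0.00848) and Thy1 (0.383, adjusted p = 0.0313, lost in 8 of 24 fits).

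Some airway epithelial markers rose in Cic-S-KO lung. Of 10 ciliated cell markers 6 did, among them Foxj1 (log2 fold change 0.798, adjusted p = 0.00208), and the calls for Dnah5 and Dnai2 were lost in 6 and 9 of 24 fits without 1 library. The summed level of the ciliated list overlapped between the groups, at 753.7 to 1004 CPM in WT, 793.8 to 1087 CPM in Cic-S-KO and 757.9 to 1009 CPM in Cic-L-KO. Most of that sum came from Sec14l3 and Tppp3, which did not pass in Cic-S-KO, so it says little about the other markers. Sec14l3 lay at 425.6 to 622.4 CPM in WT and 434 to 595.6 CPM in Cic-S-KO. Foxj1 lay at 27.3 to 52.2 CPM in WT and 53.5 to 97.2 CPM in Cic-S-KO. Of 14 other airway secretory genes 5 rose, led by Bpifb1 (2.97, SE 0.499, adjusted p = 0.000529) and Ltf (1.57, adjusted p = 0.00707), and the list summed to 3711 to 5098, 4926 to 7146 and 3312 to 5464 CPM. Scgb1a1, the club cell secretoglobin, did not pass (0.228, adjusted p = 0.147). Of 5 tested basal cell markers 2 rose in both knockouts, Aqp3 (2.26 for Cic-S-KO, and 1.68 for Cic-L-KO, lost in 2 of 24 fits) and Krt14 (0.934 and 1.04), with summed levels of 7.37 to 19.2, 13.0 to 39.2 and 12.2 to 42.1 CPM, and Krt5 was below the filter.

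In Cic-L-KO lung the ciliated list moved both ways, with Tppp3 higher (0.394) and Ccdc39 and Dnai2 lower (-0.616 and -0.496, the call for Dnai2 lost in 9 of 24 fits without 1 library). Among the other airway secretory genes Ano1 (0.287), Aqp5 (0.246, lost in 2 of 24 fits) and Lypd2 (0.62, lost in 17 of 24 fits) rose there. Airway cartilage markers mark the larger airways in a dissected lobe. They summed to 11.4 to 23.8 CPM in WT, 17.3 to 48.6 CPM in Cic-S-KO and 14.2 to 26.1 CPM in Cic-L-KO. Most of that sum was the single gene Chad, at 6.58 to 18.2 CPM in WT and 11.7 to 40.8 CPM in Cic-S-KO. Chad (0.951, adjusted p = 0.0125 by edgeR) was the 1 of 3 tested that rose in Cic-S-KO. Markers of oesophagus, thymus and stomach stayed at 1.90 to 16.7 CPM in sum over all lung libraries. The part of any of these cell types in the levels of the 10 genes was not tested. Markers that define lung epithelium were abundant in every library (16240 to 23700 CPM in sum), as the tissue label says.

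**Figure D4:**
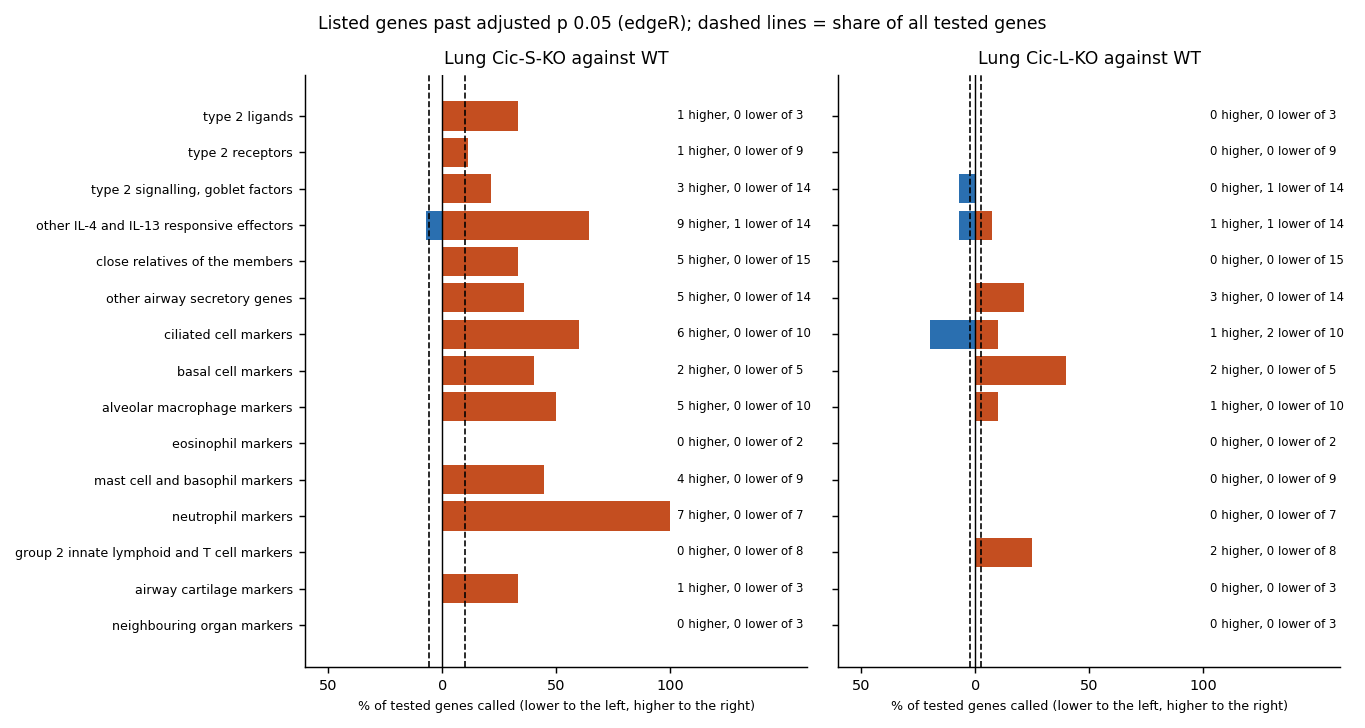
Share of tested genes of each list that were higher (to the right) or lower (to the left) in Cic-S-KO or Cic-L-KO than in WT lung by edgeR at adjusted p under 0.05, with the counts beside each bar; dashed lines mark the shares among all tested genes (9.99% and 5.73% on the left panel, 2.62% and 2.28% on the right). Neutrophil markers (7 of 7) and other interleukin-4 and interleukin-13 responsive genes (9 of 14) have the longest bars in Cic-S-KO.

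In the adult brain most of the 10 genes were close to absent. In cortex and in cerebellum 8 of 10 did not pass the filter, with at most 15 and 17 reads in any library. Chia1 and Slc26a4 were tested in cortex, and Chia1 and Arg1 in cerebellum. Brain and lung also differ in age and in the batch of the labels, so levels were not compared between them.

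Chia1 was higher in cortex of Cic-L-KO mice. It lay at 0.381 to 1.35 CPM in WT (median 0.861, or 8 to 32 reads), 0.620 to 1.82 CPM in Cic-S-KO (median 1.47) and 0.858 to 2.50 CPM in Cic-L-KO (median 2.08), and 7 of 8 Cic-L-KO libraries stood above all WT libraries. The log2 fold change of Cic-L-KO over WT was 1.19 (SE 0.24, adjusted p = 0.000187 by edgeR), in a comparison in which 21.4% of all tested genes were higher. In Cic-S-KO cortex it was 0.623 (SE 0.255, adjusted p = 0.135). In that comparison 0 of 2 members passed by edgeR or DESeq2 (1 at an unadjusted p under 0.05), against 2.83% of all genes called higher. Between the knockouts Chia1 differed by -0.565 (Cic-S-KO minus Cic-L-KO, SE 0.238, adjusted p = 0.0661). Slc26a4, at 3.79 to 6.80 CPM over all cortex libraries, had log2 fold changes of -0.159 (adjusted p = 0.427) in Cic-S-KO and -0.0186 (adjusted p = 0.904) in Cic-L-KO.

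In cerebellum the values were lower still. Chia1 lay at 0.136 to 0.647 CPM in WT (4 to 17 reads), 0.323 to 0.983 CPM in Cic-S-KO and 0.232 to 1.29 CPM in Cic-L-KO. Cic-L-KO samples exceeded WT by a log2 fold change of 0.972 (SE 0.351, adjusted p = 0.0471), with 4 of 8 libraries above all WT libraries. Arg1 lay at 0.495 to 1.08 CPM in WT, 0.525 to 1.29 CPM in Cic-S-KO and 0.858 to 1.56 CPM in Cic-L-KO, and its log2 fold change of 0.6 (SE 0.203, adjusted p = 0.0341) also passed. Thus 2 of 2 tested members were called higher, against 10.9% of all genes. With the replicate number as a block neither passed (adjusted p = 0.0829 for Chia1 and 0.0613 for Arg1), and without the low-count filter Arg1 did not (adjusted p = 0.0951). In Cic-S-KO cerebellum 0 of 2 passed by edgeR or DESeq2 (1 at an unadjusted p under 0.05), against 4.34% of all genes called higher, with log2 fold changes of 0.854 (adjusted p = 0.146) for Chia1 and 0.429 (adjusted p = 0.217) for Arg1.

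**Figure D5:**
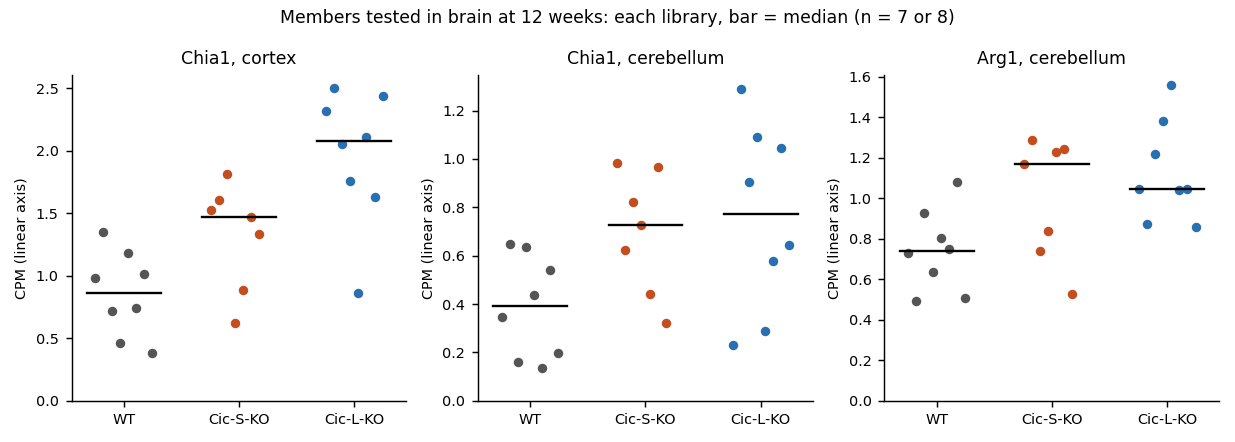
CPM (linear axis from 0) of the members that were higher in Cic-L-KO than WT brain at 12 weeks: Chia1 in cortex, Chia1 in cerebellum and Arg1 in cerebellum; points are libraries (n = 8, or 7 in Cic-S-KO) and bars are medians. Chia1 medians in cortex are 0.861 CPM in WT, 1.47 CPM in Cic-S-KO and 2.08 CPM in Cic-L-KO, and in both cerebellum panels the groups overlap.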

How the data were processed

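RNA was extracted from frozen mouse lung, cortex and cerebellum and sequenced after poly(A) selection, per the labels' protocols. The deposited table holds the authors' raw read counts for 50789 Ensembl gene identifiers in 70 columns, each matched to 1 sample by its library name (0 columns without a sample). Reads were aligned with STAR 2.7 to GRCm38.p6, per the submitters' processing notes; the counting program, the annotation and the use of strand are not given in the sources used here. Symbols came from GENCODE M21 (50725 identifiers matched, 64 did not). Among 238 replicate pairs 0 were identical and the lowest chi-square per degree of freedom was 3.12, so each sample counted as 1 replicate. The labels do not state that replicates are separate animals, so p-values measure the spread between these samples.

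Counts were tested with edgeR 4.0.16 (R 4.3.3): filterByExpr on genotype, TMM, and a robust quasi-likelihood fit of the 3 genotypes of a tissue (24 lung samples), over 16695 genes in lung, 16974 in cortex and 16643 in cerebellum, with Benjamini-Hochberg adjustment over all of them. The SE was derived from the F statistic. Correlations used log2 CPM with a prior count of 2 and all 40320 pairings of 8 samples; a gene's samples were called separate clusters where a gap between neighbouring values, with at least 2 samples on either side, exceeded 40% of the range. Alternatives were DESeq2 1.42.0, limma 3.58.1 voom with library weights, RLE, a filter at a mean of 50 counts or none, a non-robust fit, 2 genotypes only, a Y-linked covariate, the replicate block, a prior count of 0.5, Spearman's rho and leaving out each lung library. A split by Y-linked RNA (mean above or below 1 CPM) was chosen after seeing the data. The scripts were tested on simulated data.

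All 10 members are named; listed genes are named where they passed in lung, with the ligands, Stat6, Gata3, Spdef, Foxa3, Il4ra, Il13ra1 and Il1rl1 named in any case, and the 10 genes most like the members' mean and the 3 most like Chil3, Clca1 and Muc5b. Scgb1a1, Krt5, Mpo, Elane, Epx, Prg2, Prg3, Gata2 and Sec14l3 are named as defining or leading genes of their lists. The members and the lists were chosen with earlier results of these data known.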

Additional observations from a re-analysis of the deposited data

Results flagged for a closer look

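In 9 of the 30 sets of 8 lung libraries (10 genes in 3 groups) the highest library stood apart from the rest by Dixon's criterion, where chance gives about 1.5 (1 in 20). In all 9 the library that stood apart was the highest. In Cic-S-KO lung these were replicate 2 for Chil4 (242.7 CPM, next 111 CPM), Clca1 (777.2 CPM, next 336.1 CPM) and Muc5ac (70.67 CPM, next 30.32 CPM), and replicate 6 for Arg1 (62.84 CPM, next 14.68 CPM). In WT lung they were replicate 7 for Chil3 (70.72 CPM, next 23.59 CPM) and replicate 5 for Muc5b (33.37 CPM, next 7.386 CPM) and Agr2 (2.953 CPM, next 1.072 CPM). In Cic-L-KO lung they were replicate 5 for Slc26a4 (12.09 CPM, next 2.059 CPM) and replicate 7 for Clca1 (53.51 CPM, next 27.85 CPM). The criterion was applied to CPM on the linear scale, on which a wide spread of high values weighs more than on a log scale.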

How the results depend on the processing

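The 10 members stayed called higher in Cic-S-KO against WT lung in each of the 24 fits without 1 library, with RLE, DESeq2, either other filter, a non-robust fit, 2 genotypes and the Y-linked covariate; with limma voom Chil4 did not pass (6.11, adjusted p = 0.0997). Without 1 library the count of all genes called ran from 1891 to 3289 for that contrast, from 517 (without WT replicate 6; 522 without WT replicate 5) to 933 for Cic-L-KO against WT and from 1506 to 2401 between the knockouts; members called ran from 0 to 1 in Cic-L-KO against WT (0 with all libraries, 1 with DESeq2 and 2 with only the compared genotypes) and from 7 to 9 between the knockouts. Fitted within samples with Y-linked RNA, 387 genes and 3 members passed in Cic-S-KO against WT, 62 genes in Cic-L-KO against WT, and 391 genes and 2 members between the knockouts; without Y-linked RNA these were 481 and 3, 181, and 405 and 0, with 4 samples a group in place of 8. The Cic-L-KO fold change changed sign for Chil3 without WT replicate 4 (-0.0206), WT replicate 5 (-0.0133), WT replicate 8 (-0.00945) or Cic-L-KO replicate 3 (-0.0247), against 1.02 at most without 1 library (WT replicate 7), and within samples without Y-linked RNA (-0.259), and for Slc26a4 within samples with it (-0.889); the cause was not tested. With no low-count filter 732 genes passed in Cic-S-KO cortex (1108 with it) and 1 member in Cic-L-KO cerebellum. Pairs of members past the threshold fell to 0 in each group without the 2 farthest libraries, where 6 libraries allow few permutations, and to 3 in Cic-L-KO with Spearman's rho. These were Muc5b with Agr2, Slc26a4 with Muc5b, and Clca1 with Agr2 (rho = 0.929, exact permutation adjusted p = 0.0286). Clca1 with Agr2 had not passed by Pearson's r (0.853, exact permutation adjusted p = 0.0521), and its r was 0.907 without the 2 farthest libraries.

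Deviations of same-numbered lung samples had a median correlation of 0.158 (16 of 24 over 0.1, range -0.0531 to 0.346). Differently numbered samples were not compared, and same-numbered samples also share the presence or absence of Y-linked RNA. These values therefore cannot decide whether the numbers are pairs. The main fit did not take them as pairs, and a fit with the replicate block is given beside it. With the replicate block 1285 genes passed in Cic-L-KO lung (817 without), 627 in Cic-S-KO cortex, 591 in Cic-S-KO cerebellum (1370 without) 0 members in Cic-L-KO cerebellum and 6 members between the knockouts in lung (8 without). Depth limits Chil4, Clca1, Slc26a4 and Agr2 in WT lung, where some libraries held under 10 reads, and every member in brain but Slc26a4 in cortex.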

Other observations

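The WT lung library with the most Clca1, Muc5ac, Muc5b and Agr2 (replicate 5) held 23.4, 9.63, 33.4 and 2.95 CPM of them beside 5.61 CPM of Chil3, below the WT median of 7.74 CPM. The library with the most Chil3 (replicate 7, 70.7 CPM) held 0.118 CPM of Clca1, the least of the 8, and 0.0783 CPM of Chil4, also the least. In WT lung the highest value of Chil3 and the highest values of Clca1, Muc5ac, Muc5b and Agr2 thus came from different libraries. Arg1 was also highest in replicate 7 (4.70 CPM). Retnla, described above with the macrophage genes, was highest in replicate 1 (182.5 CPM). That library also held the most Chil4 (2.12 CPM) and Slc26a4 (4.48 CPM), and 11.5 CPM of Clca1.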
